A study of Mus musculus with 6 samples.

Results

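The replication-dependent histone genes were described in marrow stromal cells of the mouse femur, sorted at postnatal day 21 and read by RNA sequencing. Members were the rows of the count table with an older mouse histone cluster symbol (Hist1h, Hist2h, Hist3h or Hist4h), which gave 57 genes of 17128. They comprised 6 genes of the linker histone H1, 13 of H2A, 15 of H2B, 11 of H3 and 12 of H4. The 15 of H2B include Hist3h2bb-ps, annotated as a processed pseudogene. Of these, 47 had at least 10 counts over the 6 libraries, and the other 10 were left out of class levels and tests. Annotated cluster genes without a row in the count table, such as Hist1h2ad and Hist1h2bq, are not among the 57.

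For the 3 CXCL12-deficient libraries, GFP+tdTomato+ cells were taken from mice with Col2a1-cre, a GFP allele and a floxed allele of Cxcl12, and the R26R-tdTomato reporter. For the 3 control libraries, GFP+ cells were taken from mice with the same pair of Cxcl12 alleles and the same reporter, without cre. All 6 libraries therefore came from cells with GFP in place of 1 Cxcl12 allele, and no library came from mice with 2 intact alleles. Cre was driven by the Col2a1 promoter, so the floxed allele is recombined in cells that made, or descend from cells that made, this cartilage collagen. The sort gate, cre and the floxed allele changed together between the groups and cannot be told apart. Nothing in the labels says that the libraries of a group came from separate animals, so a p-value here covers only library-to-library spread.

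Library totals were 25155012, 23093189 and 22865174 counts in CXCL12-deficient libraries, against 28009257, 24214000 and 20133299 counts in control libraries. The labels give no replicate numbers, so replicates are numbered here by sample order within each group. A shared number does not link a CXCL12-deficient library to a control library. One count was worth 0.0357 to 0.0472 CPM (counts per 1000000 in a library, with totals scaled by TMM factors). Cxcl12, the targeted chemokine gene, had 1423, 1280 and 1163 CPM in CXCL12-deficient cells, against 3876, 3673 and 3694 CPM in control cells (log2 fold change -1.54 ± 0.17 SE, edgeR adjusted p = 0.0053). Of the 12 stromal identity markers, 4 were called higher in CXCL12-deficient libraries, where 0.639% of all tested genes were. Only 1, Cxcl12, was called lower, where 3.94% of all tested genes were. Without control replicate 3 none of these markers was called higher. Markers of other cells were read in both groups: the 15 granulocyte markers summed to 3004 to 7512 CPM in CXCL12-deficient libraries, against 15965 to 21850 CPM in control libraries.

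A dividing cell must make as much histone as it makes DNA, and the clustered histone genes do this in S phase. Their genes usually have no introns. Their mRNAs usually end after a short conserved stem-loop in place of a poly(A) tail; the stem-loop binding protein SLBP holds that hairpin, and the U7 particle directs the cut just after it. H2A, H2B, H3 and H4 form the core that DNA wraps around, and H1 binds the linker DNA between cores. Some cluster genes are also known to give spliced or polyadenylated mRNAs, mainly in cells that have left the cell cycle.

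In the GENCODE M21 annotation (GRCm38), 45 of the 57 members lie on chromosome 13. Another 8 lie on chromosome 3, 3 on chromosome 11 and 1 on chromosome 6. In the transcript used for each member, the longest and coding where there is one, 54 of 57 have a single exon. The stem-loop is shown here for the described members that have it, because it is the element shared by these mRNAs and because the bases annotated after it differ widely between members. Each line gives the coordinates of the 16-base hairpin on GRCm38, and then the hairpin in capitals with the flanking bases in lower case, 5′ to 3′ on the gene's strand.
Hist1h1c (chr13:23739512-23739527, plus strand): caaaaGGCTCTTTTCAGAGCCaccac
Hist1h1e (chr13:23621782-23621797, minus strand): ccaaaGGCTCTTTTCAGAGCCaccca
Hist3h2a (chr11:58955172-58955187, plus strand): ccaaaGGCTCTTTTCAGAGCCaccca
Hist1h2ae (chr13:23570668-23570683, minus strand): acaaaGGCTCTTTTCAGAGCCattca
Hist1h2bj (chr13:22043638-22043653, plus strand): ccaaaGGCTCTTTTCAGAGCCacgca
Hist2h3c1 (chr3:96247327-96247342, plus strand): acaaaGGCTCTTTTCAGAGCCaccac
Hist1h3f (chr13:23544932-23544947, plus strand): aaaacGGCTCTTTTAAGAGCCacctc
Hist4h4 (chr6:136803998-136804013, minus strand): acaaaGGCCCTTTTCAGGGCCcacaa
Hist1h4d (chr13:23581950-23581965, plus strand): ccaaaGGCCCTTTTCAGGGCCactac

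The pattern searched on the transcript strand was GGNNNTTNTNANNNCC with all 6 stem bases paired, a G with a T included. It was found in 37 of the 42 members with at least 20 bases annotated after the coding sequence (88.1%). It was also found in 35 of 20910 other protein-coding genes (0.167%). Members were searched in their longest coding transcript only, and other genes in any coding transcript. H2afx, the DNA damage variant H2A.X, was among those 35. The hairpin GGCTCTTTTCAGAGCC was the form of 19 members, from H1, H2A, H2B and H3. The form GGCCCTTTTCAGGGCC was the form of 6 members, all of H4. Hist1h1b has 3 bases annotated after its coding sequence and was not searched. Bases after the coding sequence include the stop codon here, so nothing is annotated past the stop codon of Hist1h1b. Hist1h2bc, whose searched transcript has 2 exons, and Hist2h2be had no match. Any shorter transcripts of these genes were not searched.

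Promoters are shown for Hist1h1c, Hist1h2ae and Hist1h4d, chosen after their values were seen: they are the most abundant members among those whose CXCL12-deficient and control libraries did not overlap. Sequences are from RefSeq (GRCm38.p6), 250 bases before to 50 bases after the annotated start, and capitals mark motif matches on either strand.
Hist1h1c (chr13:23738557-23738856, plus strand): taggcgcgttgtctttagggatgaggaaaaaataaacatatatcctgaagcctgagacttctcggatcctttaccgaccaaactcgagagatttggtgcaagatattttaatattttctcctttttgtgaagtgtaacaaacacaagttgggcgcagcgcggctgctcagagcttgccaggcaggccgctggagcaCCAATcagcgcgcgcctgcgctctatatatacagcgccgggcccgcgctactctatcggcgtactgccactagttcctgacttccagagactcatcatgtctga
Hist1h2ae (chr13:23571171-23571470, minus strand): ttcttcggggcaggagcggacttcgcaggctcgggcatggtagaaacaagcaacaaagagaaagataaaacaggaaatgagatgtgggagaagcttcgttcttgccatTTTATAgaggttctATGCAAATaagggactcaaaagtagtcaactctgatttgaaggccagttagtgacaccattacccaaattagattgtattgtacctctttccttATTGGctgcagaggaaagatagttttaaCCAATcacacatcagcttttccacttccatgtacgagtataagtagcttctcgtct
Hist1h4d (chr13:23581318-23581617, plus strand): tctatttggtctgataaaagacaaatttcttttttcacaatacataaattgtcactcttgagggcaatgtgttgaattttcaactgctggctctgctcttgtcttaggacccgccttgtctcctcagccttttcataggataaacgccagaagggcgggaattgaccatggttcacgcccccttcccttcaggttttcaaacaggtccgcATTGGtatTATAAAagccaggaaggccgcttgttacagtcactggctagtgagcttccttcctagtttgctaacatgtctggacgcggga

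RefSeq promoters were matched for 51 members and motifs were searched on both strands, with overlaps allowed. CCAAT, the word read by the factor NF-Y, was in 43 of 51 member promoters (84.3%), against 37.9% of all 27025 promoters. Every matched H1, H2A, H2B and H3 promoter held it, and 3 of 11 H4 promoters did. TATAAA, the core of the TATA box, was in 58.8% of member promoters, against 14.2% of all promoters. It was counted at any position of the stretch and on either strand, so a match need not be a TATA box. The match of Hist1h4i, for example, lay 137 bases before the start. The octamer ATTTGCAT, bound by the factor Oct1, was in 7 of 13 H2A and 5 of 12 H2B promoters and in no H1, H3 or H4 promoter, against 1.75% of all promoters. Promoters of neighbouring H2A and H2B genes can overlap, so the same site can be counted for both. This held for the octamer of Hist1h2ae and Hist1h2bg and that of Hist1h2aa and Hist1h2ba. The words TTTCCCGC or TTTGGCGC, read by E2F factors, were in 1 member promoter (1.96%), against 1.63% of all. Only these words were searched, so the share does not cover every E2F site. The close variant TTTCGCGC was not searched and stands in the Hist1h2af, Hist1h2ag and Hist1h2ah promoters, among others. In the Hist1h2ae promoter the octamer and the TATAAA match both lay on the strand of Hist1h2bg, the H2B gene that starts 175 bases away in the other direction. The matches are descriptions of sequence, and binding was not measured.

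The 47 members with at least 10 counts together took 0.0230%, 0.0245% and 0.0240% of all counts in CXCL12-deficient libraries, against 0.0224%, 0.0272% and 0.0249% in control libraries. Whether the amplification kit primed on poly(A) is not given in the sources used here, and how much histone mRNA without a tail entered the libraries was not tested. Of these 47 members, 29 passed the edgeR filter on low counts and were tested, and 18 were not. None of the 29 was called at an adjusted p below 0.05 by edgeR's quasi-likelihood test, where 4.57% of the 13926 tested genes were called in either direction, 3.94% lower and 0.639% higher. At an unadjusted p below 0.05 there were 2 members, Hist1h1b and Hist1h2ae, or 2 of 29, where the share over all tested genes was 18.9%. DESeq2 called 1 member, Hist1h2ae (log2 fold change -1.25, adjusted p = 0.030), where it called 6.65% of genes lower; limma-voom called none. The fit without control replicate 1 called the same gene (log2 fold change -1.54, adjusted p = 0.043), where 3.74% of genes were called lower.

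The fold change was negative for 19 and positive for 10 of the 29 tested members, where 47.4% of tested genes had a negative one. The members' median log2 fold change was -0.30, beside 0.03 for all tested genes. By class it was -0.61 for 5 H1 genes, -0.69 for 6 H2A genes, -0.30 for 9 H2B genes, 0.29 for 3 H3 genes and -0.05 for 6 H4 genes. The groups did not overlap, with CXCL12-deficient libraries lower, for 3 members (Hist1h2ae, Hist1h2bj and Hist1h4d), where 13.9% of tested genes met this. They did not overlap, with CXCL12-deficient libraries higher, for 1 member, Hist1h1c, where 11.7% of genes met this. Fewer cells of a type and less RNA per cell cannot be told apart in these bulk libraries.

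**Figure D1:**
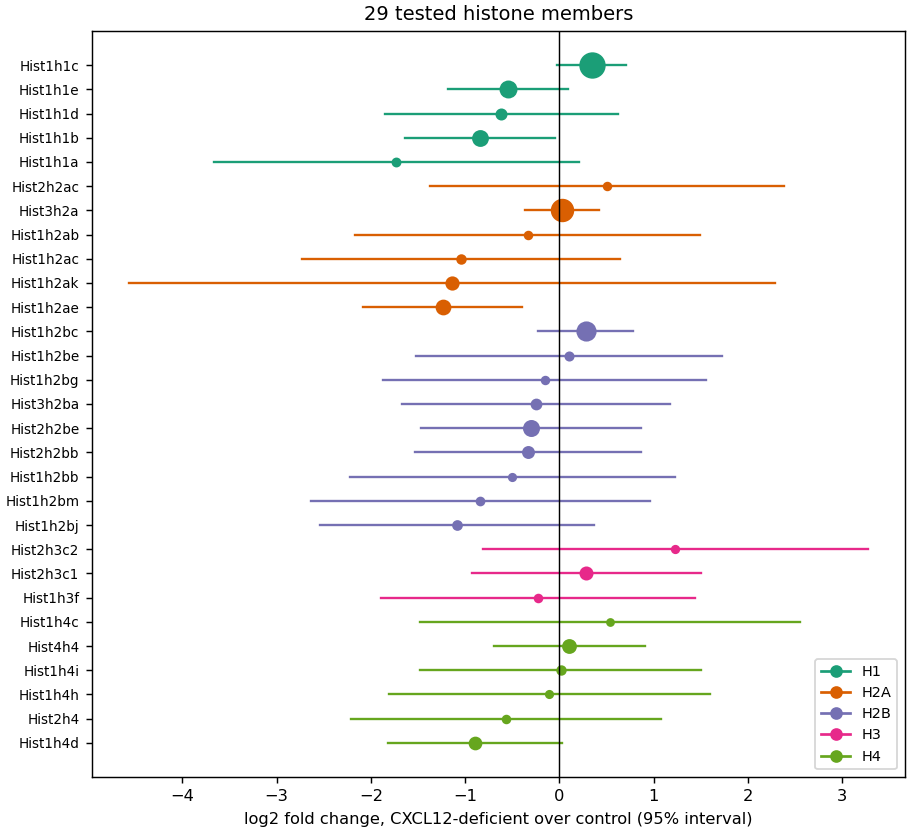
Log2 fold change (horizontal axis) of each of the 29 tested members, CXCL12-deficient over control, with its 95% interval; colours mark the class and larger points a higher mean CPM. Abundant Hist1h1c, Hist3h2a and Hist1h2bc have narrow intervals that include 0, and the intervals of Hist1h1b and Hist1h2ae lie below 0 before adjustment.

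Linker histone genes held 50.1% of the counts of the 47 members with at least 10 counts, and Hist1h1c alone held 40.3%. Hist1h1c, which encodes linker histone H1.2, had 101.6, 118.4 and 107.7 CPM in CXCL12-deficient libraries, against 101.0, 81.6 and 75.9 CPM in control libraries. The groups did not overlap, although the lowest CXCL12-deficient and the highest control library were close. Its log2 fold change was 0.34 ± 0.16 SE (95% interval -0.02 to 0.70, edgeR adjusted p = 0.29). Hist1h1c (chr13:23738808-23740367, plus strand) has 840 bases annotated after the stem-loop.

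The other H1 genes lay on the other side of 0. Hist1h1b, which encodes H1.5, had 6.29, 6.67 and 6.44 CPM in CXCL12-deficient libraries, against 6.35, 13.6 and 14.8 CPM in control libraries. The 3 CXCL12-deficient libraries and control replicate 1 were alike, and control replicate 1 stood at 0.448 times the mean of control replicates 2 and 3. Its log2 fold change was -0.84 ± 0.35 SE (unadjusted p = 0.041, edgeR adjusted p = 0.24). Hist1h1e, which encodes H1.4, had the same layout, with 9.12, 10.2 and 10.1 CPM in CXCL12-deficient libraries, against 9.75, 15.97 and 17.2 CPM in control libraries (log2 fold change -0.54 ± 0.28 SE, edgeR adjusted p = 0.34). Of the 50-base words of Hist1h1e, 32.0% occur in other genes, most of them in Hist1h2be. Hist1h1d (H1.3) and Hist1h1a (H1.1) had log2 fold changes of -0.61 and -1.73 on 307 and 123 counts in all, and the testis gene Hist1h1t had 15 counts and was not tested. Together the H1 genes without Hist1h1c summed to 17.8, 19.2 and 18.4 CPM in CXCL12-deficient libraries, against 18.2, 34.4 and 37.3 CPM in control libraries.

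Among the H2A genes, Hist3h2a held 77.0% of the counts of its class. Hist3h2a had 55.6, 43.3 and 45.9 CPM in CXCL12-deficient libraries, against 46.6, 52.9 and 42.6 CPM in control libraries. The groups overlapped, and the log2 fold change was 0.03 ± 0.17 SE (95% interval -0.36 to 0.42, edgeR adjusted p = 0.96). This gene (chr11:58954685-58956830, plus strand) has 1643 bases annotated after the stem-loop, and 31.5% of its 50-base words also occur in Trim17, so reads from the shared stretch could be counted for either.

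Hist1h2ae was the tested member nearest to a call. It had 3.79, 4.36 and 3.91 CPM in CXCL12-deficient libraries, against 5.46, 10.5 and 12.5 CPM in control libraries. All 3 CXCL12-deficient libraries lay below all 3 control libraries, and control replicate 1 was again the lowest control. The log2 fold change was -1.24 ± 0.37 SE, or 2.36-fold lower (95% interval -2.08 to -0.39, unadjusted p = 0.0090, edgeR adjusted p = 0.11). Hist1h2ae (chr13:23570517-23571220, minus strand) has 151 bases annotated after the stem-loop, and 43.2% of its 50-base words occur in other genes, most of them in Hist1h2ad.

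Hist1h2ak was unlike the other tested H2A genes, because single libraries held most of its reads. Of its 50-base words 52.3% occur in other genes, most of them in Hist1h2ao. Hist1h2ak had 8, 13 and 164 counts in CXCL12-deficient libraries, against 10, 413 and 18 counts in control libraries. Its log2 fold change of -1.14 therefore had an SE of 1.49 (edgeR adjusted p = 0.75). The H2A genes without Hist3h2a summed to 7.54, 8.02 and 13.01 CPM in CXCL12-deficient libraries, against 9.46, 30.2 and 18.0 CPM in control libraries, and the high values of CXCL12-deficient replicate 3 and control replicate 2 include those of Hist1h2ak. The other tested H2A genes, Hist1h2ac, Hist1h2ab and Hist2h2ac, had 100 to 169 counts over all libraries, and log2 fold changes of -1.04, -0.33 and 0.50.

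**Figure D2:**
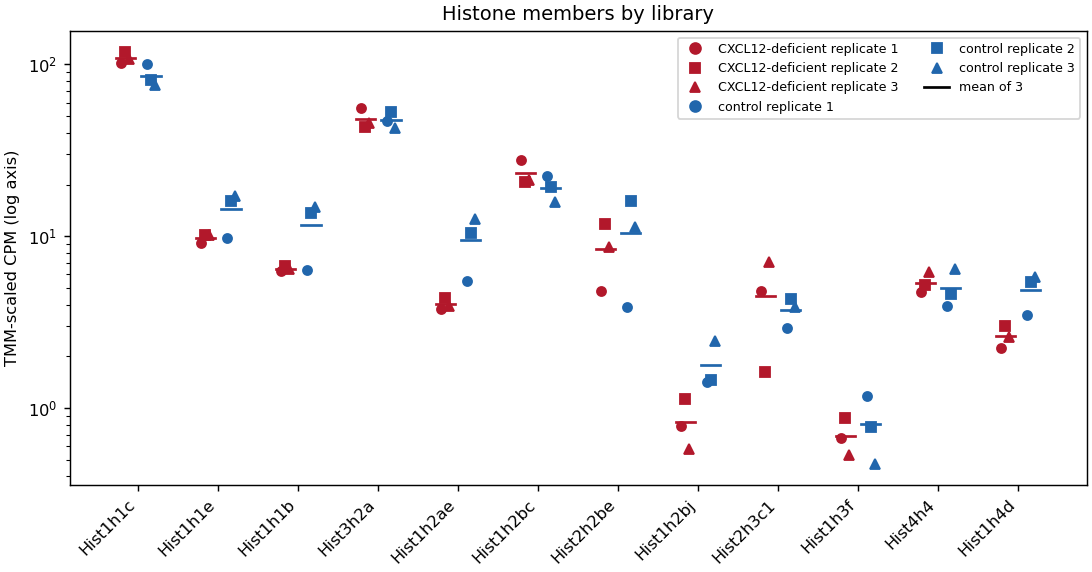
TMM-scaled CPM (log axis) of the 12 described members in each library, CXCL12-deficient (red) left of control (blue), with lines at the means of 3. Control replicate 1 (blue circles) sits near the CXCL12-deficient libraries for Hist1h1e (9.75 CPM) and Hist1h1b (6.35 CPM), and is the highest control for Hist1h1c (101.0 CPM).

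H2B counts came mostly from Hist1h2bc, with 52.7% of the class. Hist1h2bc had 27.9, 20.8 and 21.3 CPM in CXCL12-deficient libraries, against 22.3, 19.5 and 15.9 CPM in control libraries. The groups overlapped (log2 fold change 0.28 ± 0.22 SE, 95% interval -0.22 to 0.78, edgeR adjusted p = 0.56). Of the 50-base words of Hist1h2bc, 30.1% occur in other genes, most of them in Hist1h2bg. Hist2h2be, the next in level, had 4.79, 11.9 and 8.66 CPM in CXCL12-deficient libraries, against 3.86, 16.02 and 11.3 CPM in control libraries. It varied more within each group than between them (log2 fold change -0.30 ± 0.52 SE, edgeR adjusted p = 0.82), and replicate 1 was the lowest library of each group.

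Hist1h2bj had the lowest fold change among the H2B genes averaging 1 CPM or more. It had 0.79, 1.13 and 0.58 CPM in CXCL12-deficient libraries, against 1.43, 1.46 and 2.46 CPM in control libraries. These values rest on 13 to 52 counts a library; the groups did not overlap, and the log2 fold change was -1.09 ± 0.65 SE (edgeR adjusted p = 0.41). Of its 50-base words 59.4% occur in Hist1h2bq, so its reads could come from either copy. Hist1h2bq itself has no row in the count table. The 6 other tested H2B genes had log2 fold changes between -0.84 and 0.11. Hist1h2ba, a testis H2B, had 18 counts, of which 14 were in CXCL12-deficient replicate 3.

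H3 genes had the fewest counts, 2.57% of those of the 47 members (8 H3 genes kept), and 3 of the 11 H3 genes were tested. Hist2h3c1 had 4.83, 1.61 and 7.10 CPM in CXCL12-deficient libraries, against 2.93, 4.31 and 3.87 CPM in control libraries. The CXCL12-deficient libraries reached both above and below the controls (log2 fold change 0.29 ± 0.54 SE, edgeR adjusted p = 0.83). All of its 50-base words (100%) also occur in the annotated gene Gm20634, so its reads could not be assigned by sequence. Hist1h3f had 0.67, 0.87 and 0.53 CPM in CXCL12-deficient libraries, against 1.18, 0.77 and 0.47 CPM in control libraries (log2 fold change -0.23 ± 0.74 SE, edgeR adjusted p = 0.91). Of the 50-base words of Hist1h3f, 49.3% occur in other genes, most of them in Hist1h3e. Hist2h3c2, with 88 counts over all libraries, had the highest fold change of any tested member (log2 fold change 1.23 ± 0.90 SE, edgeR adjusted p = 0.52). Hist1h3c had 0 counts in all 3 CXCL12-deficient libraries, against 3, 4 and 3 counts in control libraries, so the control counts hardly exceed the 3 counts that an observed 0 allows.

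H4 genes held 4.997% of the counts of the same 47 members, and the fold changes of the 2 most abundant had opposite signs, neither of them called. Hist4h4, the solitary H4 gene of chromosome 6, had 4.71, 5.23 and 6.17 CPM in CXCL12-deficient libraries, against 3.93, 4.59 and 6.47 CPM in control libraries (log2 fold change 0.11 ± 0.36 SE, edgeR adjusted p = 0.91). Hist1h4d had 2.25, 3.01 and 2.58 CPM in CXCL12-deficient libraries, against 3.46, 5.41 and 5.76 CPM in control libraries. The groups of Hist1h4d did not overlap, and its log2 fold change was -0.90 ± 0.41 SE (unadjusted p = 0.055, edgeR adjusted p = 0.28). The other 4 tested H4 genes, Hist1h4i, Hist2h4, Hist1h4h and Hist1h4c, had 63 to 165 counts over all libraries, log2 fold changes between -0.57 and 0.54, and overlapping groups.

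Summed over all 47 members, the histone level was 244.0 ± 2.67 CPM in CXCL12-deficient libraries and 242.8 ± 22.4 CPM in control libraries (SD, n = 3 each). By class, H1 summed to 127.7 ± 9.19 CPM in CXCL12-deficient libraries and 116.1 ± 2.98 CPM in control libraries. H2A summed to 57.8 ± 5.95 CPM in CXCL12-deficient libraries and 66.6 ± 14.5 CPM in control libraries. These sums were set by single genes. Without the most abundant gene of the class, H1 summed to 18.5 ± 0.70 CPM in CXCL12-deficient libraries and 30.0 ± 10.3 CPM in control libraries, and H2A to 9.52 ± 3.03 CPM in CXCL12-deficient libraries and 19.2 ± 10.4 CPM in control libraries. In the H1 sum without Hist1h1c, control replicate 1 lay apart from the other controls and among the CXCL12-deficient libraries.

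H2B summed to 40.5 ± 2.59 CPM in CXCL12-deficient libraries and 41.1 ± 7.79 CPM in control libraries, and without Hist1h2bc to 17.1 ± 4.60 CPM in CXCL12-deficient libraries and 21.9 ± 9.81 CPM in control libraries. H3 summed to 6.79 ± 2.92 CPM in CXCL12-deficient libraries and 5.77 ± 0.89 CPM in control libraries. H4 summed to 11.2 ± 0.42 CPM in CXCL12-deficient libraries and 13.3 ± 2.33 CPM in control libraries, and without Hist4h4 to 5.82 ± 0.35 CPM in CXCL12-deficient libraries and 8.27 ± 1.14 CPM in control libraries. For H2B and H3 the groups overlapped with and without the most abundant gene. For H4 they overlapped with Hist4h4 and did not without it. With 3 libraries a group, an exact permutation test of such a sum cannot go below p = 0.1, and none was run.

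**Figure D3:**
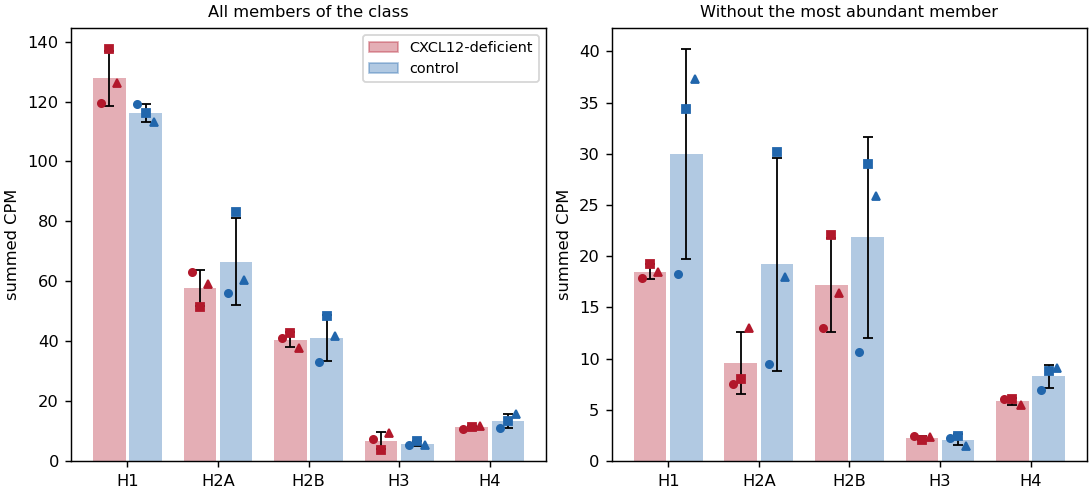
Summed CPM by histone class with all members of at least 10 counts (left) and without the most abundant member of each class (right); bars are means of 3 libraries, error bars SD, and circles, squares and triangles replicates 1, 2 and 3. H1 is 127.7 CPM in CXCL12-deficient and 116.1 CPM in control libraries with Hist1h1c, and 18.5 CPM in CXCL12-deficient and 30.0 CPM in control libraries without it.

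The order of levels depends on length, so levels were set side by side per kilobase of each gene's longest annotated coding transcript. Hist1h1c led with 70.0 ± 5.44 CPM per kilobase in CXCL12-deficient libraries and 55.2 ± 8.41 in control libraries (SD, n = 3 each). Hist3h2a followed with 22.5 ± 3.002 CPM per kilobase in CXCL12-deficient libraries and 22.1 ± 2.42 in control libraries. Hist1h2bc had 20.2 ± 3.45 CPM per kilobase in CXCL12-deficient libraries and 16.6 ± 2.78 in control libraries, and its range of 1 SD overlapped that of Hist3h2a in CXCL12-deficient libraries but not in control libraries. Hist1h1b had 8.70 ± 0.26 CPM per kilobase in CXCL12-deficient libraries and 15.6 ± 6.14 in control libraries, and Hist1h2ae 5.71 ± 0.43 in CXCL12-deficient libraries and 13.5 ± 5.16 in control libraries. The annotated lengths of these transcripts run from 704 to 2146 bases, mostly through the part after the coding sequence.

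The members were then grouped by what is annotated at their 3′ end; the split at 300 bases was chosen with the values known, so the groups are described and not tested. The 18 members with a stem-loop and over 300 bases annotated after it held 73.6% of the counts of all 57 members, 14 of them were tested, and the median log2 fold change of those 14 was 0.02. They summed to 187.6 ± 1.69 CPM in CXCL12-deficient libraries and 170.7 ± 8.13 CPM in control libraries (SD, n = 3 each). The 19 members with a stem-loop and at most 300 bases after it held 6.17% of the same counts; 9 were tested, 8 of these had a negative fold change, and the median was -0.33. They summed to 11.996, 12.9 and 9.24 CPM in CXCL12-deficient libraries, against 11.7, 20.5 and 25.0 CPM in control libraries. Control replicate 1 lay among the CXCL12-deficient libraries in this sum too.

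The 17 members with no stem-loop match and at most 300 bases after the coding sequence, among them Hist1h1b and Hist1h2ak, had a median log2 fold change of -0.99 over the 4 tested. In all, 14 coding members, every one of them in this group, have under 20 bases annotated after the coding sequence and were not searched for the hairpin. Hist1h2bc and Hist2h2be, the 2 members with a long 3′ end and no match, summed to 31.8 ± 1.58 CPM in CXCL12-deficient libraries and 29.6 ± 5.13 CPM in control libraries. The pseudogene Hist3h2bb-ps, with 18 counts over all libraries, was kept apart from these groups. The annotation does not say which 3′ end these cells used, and the counts per gene do not show it.

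**Figure D4:**
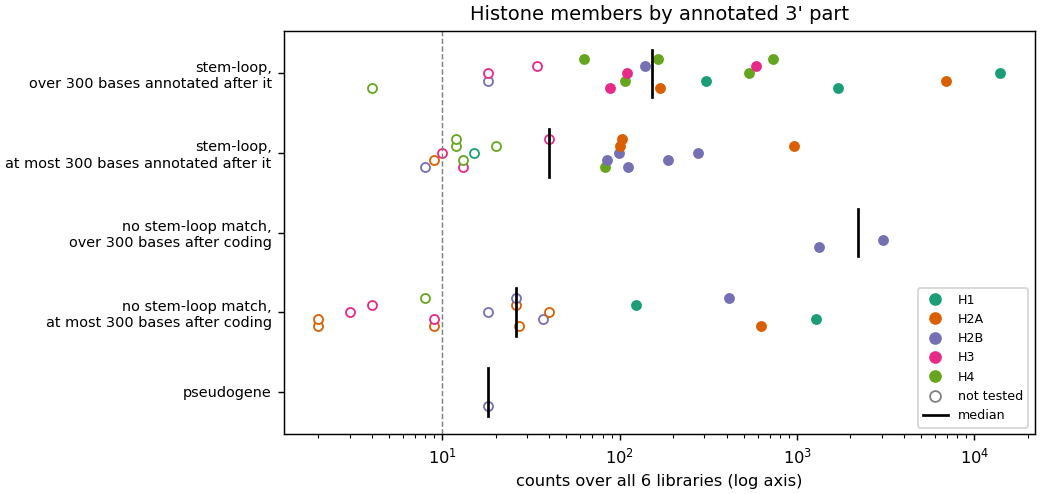
Counts over all 6 libraries (log axis) of each of the 57 members, by the annotated 3′ part of the transcript; colours mark the class, open points members that were not tested, the dashed line 10 counts and black bars the group medians. Members with a stem-loop and over 300 bases after it have a median of 151.5 counts, and those with at most 300 bases after it a median of 40 counts.

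Among the members, 8 H2A genes lie head to head with an H2B member, 172 to 305 bases apart, so that 1 stretch of DNA lies upstream of both. The partner of Hist3h2a, 172 bases away, is Hist3h2bb-ps, annotated as a processed pseudogene. The counts within such pairs were unequal. Hist1h2ac had 169 counts and its partner Hist1h2bc 3067, and Hist2h2ac had 100 counts and its partner Hist2h2be 1323. Hist1h2ae had 955 counts and Hist1h2bg 99, and their log2 fold changes were -1.24 and -0.15.

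Control replicate 1 was the lowest of the 3 controls for 20 of the 29 tested members (69.0%), where it was the lowest for 37% of all tested genes. With control replicate 1 left out, 10 of 29 members were lower in every CXCL12-deficient library than in both remaining controls (34.5%), where 20.1% of tested genes were. These 10 were Hist1h1e, Hist1h1b, Hist1h1d, Hist1h1a, Hist1h2ae, Hist2h2bb, Hist3h2ba, Hist1h2bj, Hist1h2bm and Hist1h4d. For 7 of the 10, control replicate 1 did not lie above all CXCL12-deficient libraries. This way of leaving out a library was chosen after the values were seen.

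Genes that work beside the histones were set next to them. The DNA replication list, 37 genes such as the Mcm helicase subunits and ribonucleotide reductase, had no called member; 36 of 37 fold changes were negative and the median was -0.61. Its summed level was 2858, 2966 and 2076 CPM in CXCL12-deficient libraries, against 2771, 4332 and 5073 CPM in control libraries, with control replicate 1 again among the CXCL12-deficient libraries. Of 28 mitotic genes, 4 were called lower in CXCL12-deficient cells (Top2a, Kif23, Nuf2 and Tpx2), where 3.94% of all tested genes were. Of their fold changes 28 of 28 were negative, and the median was -0.81. The groups did not overlap, with CXCL12-deficient libraries lower, for 12 of the 28, where 13.9% of tested genes met this. The mitotic genes summed to 1653, 1824 and 1116 CPM in CXCL12-deficient libraries, against 1811, 2965 and 3056 CPM in control libraries. These counts depended on which library was left out. Without control replicate 1, 6 replication genes and 10 mitotic genes were called lower, where 3.74% of all tested genes were. Without control replicate 2 or 3 none of either list was. Without CXCL12-deficient replicate 1, 2 or 3, the mitotic genes called lower numbered 1, 3 and 1. The replication genes called lower numbered 0, 1 and 0 in the same order. DESeq2 on all libraries called 4 replication and 14 mitotic genes lower, where it called 6.65% of genes lower.

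The machinery of histone mRNA itself was read in all libraries. Of 21 genes of histone transcription and 3′ processing none was called, 17 had a negative fold change, and the median was -0.27. DESeq2, and edgeR without control replicate 1, each called 2 lower, where they called 6.65% and 3.74% of all genes lower. Slbp, which binds the stem-loop, had 455.6, 366.7 and 411.9 CPM in CXCL12-deficient libraries, against 368.3, 529.3 and 513.2 CPM in control libraries (log2 fold change -0.19 ± 0.18 SE, edgeR adjusted p = 0.64). Npat, the coactivator of histone gene transcription, had 15.7, 8.68 and 17.2 CPM in CXCL12-deficient libraries, against 15.7, 27.0 and 24.2 CPM in control libraries (edgeR adjusted p = 0.28). Cdk2, the kinase that acts on Npat, had a log2 fold change of -0.58 ± 0.17 SE (edgeR adjusted p = 0.105). Zfp473, a factor of histone 3′ processing, was at 0 in 1 library. Of 18 histone chaperones and assembly factors none was called either, with 17 negative fold changes and a median of -0.36. DESeq2 called 2 lower, and edgeR without control replicate 1 called 1, beside the same shares of 6.65% and 3.74%.

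Among 11 tested histone variants made outside S phase or throughout the cycle, 2 were called lower in CXCL12-deficient cells, where 3.94% of all tested genes were, and 8 of 11 fold changes were negative. The groups did not overlap for 3 lower variants (H2afx, H2afy and H2afz), where 13.9% of tested genes met this. They did not overlap for 1 higher variant, H2afy2, where 11.7% of genes met this. H2afz had an edgeR adjusted p of 0.088 and H2afy2 one of 0.17. H2afx, whose mRNA also holds the stem-loop pattern, had 166.9, 222.4 and 155.0 CPM in CXCL12-deficient libraries, against 270.5, 397.6 and 441.2 CPM in control libraries. The groups did not overlap (log2 fold change -1.03 ± 0.22 SE, edgeR adjusted p = 0.034). Without CXCL12-deficient replicate 1 or 3, or control replicate 2 or 3, its adjusted p was 0.087 to 0.16. H2afy, which encodes macroH2A1, had 214.2, 176.5 and 188.8 CPM in CXCL12-deficient libraries, against 289.6, 296.7 and 348.6 CPM in control libraries (log2 fold change -0.69 ± 0.15 SE, edgeR adjusted p = 0.038). Its groups did not overlap either, and without CXCL12-deficient replicate 2 or 3, or control replicate 2 or 3, its adjusted p was 0.087 to 0.16.

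Markers of other cell types differed between the groups as well, apart from the erythroid list. Of 15 granulocyte markers 13 were called lower in CXCL12-deficient libraries, of 13 monocyte and macrophage markers 7, of 12 B lineage markers 3, and of 12 endothelial markers 8, where 3.94% of all tested genes were. Negative fold changes numbered 15 of 15, 9 of 13, 11 of 12 and 12 of 12 in the same order. The positive ones, none of them called, were those of the macrophage markers C1qa, C1qb, C1qc and Mrc1 (log2 fold changes of 0.29 to 0.78) and of the B lineage factor Ebf1 (log2 fold change 0.36). With a library left out these counts ran from 1 (without control replicate 3) to 11 granulocyte, 3 to 7 monocyte and macrophage, 0 to 6 B lineage and 2 to 7 endothelial markers. B lineage markers summed to 515.8 to 556.2 CPM in CXCL12-deficient libraries, against 658.7 to 1248 CPM in control libraries, where control replicate 1 was the lowest. Without Ebf1, the other 11 summed to 260.0, 210.4 and 86.7 CPM in CXCL12-deficient libraries, against 367.0, 671.7 and 976.7 CPM in control libraries, a comparison added after the values were seen. Monocyte and macrophage markers summed to 529.8 to 952.6 CPM in CXCL12-deficient libraries, against 2271 to 3497 CPM in control libraries. Endothelial markers summed to 26.3 to 36.2 CPM in CXCL12-deficient libraries, against 114.6 to 185.5 CPM in control libraries, with Tie1 and Sox17 at 0 in at least 1 library. None of the 12 erythroid markers was called, and they summed to 1410 to 4644 CPM in CXCL12-deficient libraries, against 1895 to 3153 CPM in control libraries. The part of these cells, and of cycling cells, in the histone values was not tested.

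**Figure D5:**
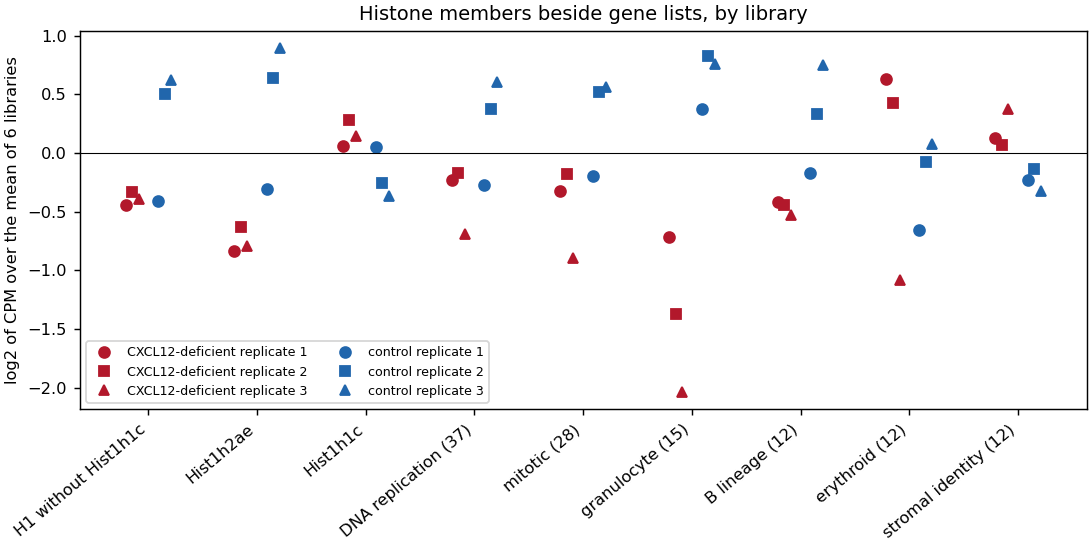
Level in each library as log2 of CPM over the mean of the 6 libraries, for histone members and the summed gene lists (number of genes in brackets), CXCL12-deficient (red) left of control (blue). Control replicate 1 (blue circles) lies among the CXCL12-deficient libraries for the H1 genes without Hist1h1c (18.2 CPM) and for DNA replication genes (2771 CPM), and below the other controls for granulocyte markers (15965 CPM).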

How the data were processed

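The authors deposited whole-number counts per gene for 6 libraries and regularized log2 values, which served for 1 alternative; a depth-scaled table was not used. Per the labels, about 20000 sorted cells a library were amplified with a SMARTer mRNA-seq kit and sequenced on a HiSeq4000. Per the submitters' processing notes, the build was mm10 and the tools included Bowtie2 2.2.1, TopHat2 2.0.13, HTSeq, DESeq2, Cuffdiff, Cufflinks and FastQC. How reads that fit several genes were handled, and the annotation and strand setting, is not given in the sources used here; counts of near-identical histone copies are therefore uncertain.

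Counts were tested with edgeR 4.0.16 (R 4.3.3; TMM factors, filterByExpr with a minimum count of 10, robust quasi-likelihood F-test) over 13926 genes of all 6 libraries, after the Cxcl12 exon entries were summed, with Benjamini-Hochberg adjustment and a threshold of 0.05. An SE is the absolute log2 fold change divided by the root of F, and intervals cover 95%. CPM values use TMM-scaled totals. The procedure was tested on simulated data. No pair of libraries in a group held the same values. DESeq2 1.42.0 and limma 3.58.1 were alternatives, as were other scalings, filters and leaving out each library. The floor of 3 counts (0.107 to 0.142 CPM) covers counting error only.

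Stem-loops, exons and 50-base words came from GENCODE M21. For each member they were taken from its longest coding transcript, or its longest transcript where none is coding. Members and gene lists were chosen with earlier results of these data known. Described members of each class were those called, the 2 of highest mean CPM, and the highest and lowest fold change among those with a mean of at least 1 CPM; of other lists, up to 4 called genes or the 2 most abundant, in part given as counts only. Members outside this rule were named after their values were seen.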

Additional observations from a re-analysis of the deposited data

How the results depend on the processing

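Genes called over the whole table numbered 637, against 80 at an adjusted p below 0.01, 1328 with DESeq2, and 74 to 577 when 1 library was left out. Called histone members numbered 0, against 1 with DESeq2 and 0 to 1 with a library left out; the 1 was Hist1h2ae, and the cause was not tested. Their median log2 fold change of -0.30 was -0.035 by limma on the deposited regularized log2 values, whose construction shrinks low counts, and -0.57 to -0.12 with a library left out. The log2 ratio of summed class levels moved when the most abundant member was left out: for H1 it was -0.70 in place of 0.14, for H2A -1.01 in place of -0.20, for H2B -0.35 in place of -0.02, and for H4 -0.51 in place of -0.24. With a library left out, the class ratios ran from 0.08 to 0.18 for H1, -0.31 to -0.01 for H2A, -0.16 to 0.12 for H2B, -0.08 to 0.53 for H3 and -0.37 to -0.12 for H4.

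Of 179 recomputed fold changes of the 12 described members, 169 kept their direction and side of the threshold, 2 passed it and 8 changed sign, all with a library left out. These ran from -0.084 to 0.12 for Hist3h2a, -0.71 to 0.16 for Hist2h2be, -0.20 to 0.69 for Hist2h3c1, -0.51 to 0.13 for Hist1h3f and -0.061 to 0.32 for Hist4h4. Of the other genes that the rule names, the erythroid Slc4a1 changed sign (-0.68 to 0.10), 98 of 494 values no longer passed the threshold and 3 newly did. No paired analysis was possible because the labels give no replicate numbers. The 12 tested members under 150 counts over all libraries had SEs of 0.72 to 0.90 on the log2 scale, with 95% intervals of at least 1.62 on either side, so smaller differences were not detectable at this depth.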
